A study of Mus musculus with 18 samples.

Results

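The genes described here are 40 mouse genes of ribosome biogenesis and RNA polymerase I, followed in polysome fractions of embryonic stem cells (ESCs) with and without Dgcr8. They were chosen by known function, and each symbol matched 1 of 51467 genes in the count table. The members fell into 6 roles. There were 7 genes of RNA polymerase I transcription, 4 nucleolar scaffold and chaperone genes, 4 genes each of the box C/D and box H/ACA small nucleolar ribonucleoproteins (snoRNPs), 10 genes of small subunit assembly and 11 of large subunit assembly. All 40 are protein-coding, and all are among the 12851 genes that passed the filter on low counts.

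Wild type (WT) cells were the V6.5 mouse ESC line, and the Dgcr8 knockout (KO) was 1 line made in earlier work, so that a difference between the genotypes is also a difference between 2 lines. Both were grown in LIF and the inhibitors PD0325901 and CHIR99021 (2i) with fetal bovine serum at 15%, and were given 100 ug/ml cycloheximide, a drug that stalls translating ribosomes, for 2 minutes. Lysates were run on sucrose gradients of 10 to 50%, and 3 gradients per genotype were each collected as monosomes, low polysomes (2 to 4 ribosomes) and high polysomes (4 ribosomes or more), which gave 6 groups of 3 libraries. The 3′ ends of the messages were counted with QuantSeq. Nothing in the labels says that the 3 gradients of a genotype came from separate cultures, so p-values measure the spread between these gradients.

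Ribosome biogenesis starts in the nucleolus, where RNA polymerase I transcribes the precursor of the large ribosomal RNAs. Box C/D and box H/ACA snoRNPs then guide 2′-O-methylation and pseudouridylation of that precursor, while assembly factors fold, cleave and export the small and large subunits. Fast-growing cells such as ESCs are known to keep this pathway highly active, and many of its genes are known targets of the transcription factor MYC. DGCR8 is needed to process primary microRNA transcripts, and Dgcr8 KO ESCs lack canonical microRNAs, among them the ESC-specific cell cycle-regulating (ESCC) family.

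The members of that family that RefSeq held with AAGUGC at bases 2 to 7 are shown. Their shared seed defines the sites looked for in the members' 3′ UTRs. The sequences are mature mouse microRNAs from RefSeq (GRCm38), written 5′ to 3′, and the capitals mark the seed at bases 2 to 8. RefSeq held 8 mature microRNAs with AAGUGC at bases 2 to 7, of which 7 are from the miR-290 and miR-302 clusters.
miR-291a-3p: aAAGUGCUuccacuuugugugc
miR-294-3p: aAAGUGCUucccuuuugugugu
miR-295-3p: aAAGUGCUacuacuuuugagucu
miR-302b-3p: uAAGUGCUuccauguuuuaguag
miR-302d-3p: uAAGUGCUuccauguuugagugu
miR-290a-3p: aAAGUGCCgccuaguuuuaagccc
miR-291b-3p: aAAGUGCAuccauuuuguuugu
The first 5 share the seed AAGUGCU. miR-290a-3p and miR-291b-3p differ from them at base 8.

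Of the 40 members, 6 held a match to this seed of 6 bases or more (GCACTT) in the 3′ UTR of their principal transcript, which is 15% of members beside 31.1% of 11763 protein-coding genes tested. Counting only matches of 7 or 8 bases, the same 6 members remained, beside 19.2% of genes. A longer 3′ UTR has more places for a match, and length was not matched between the members and all genes. The 3′ UTRs of the 6 were 936 (Tsr1) to 8379 (Wdr12) nucleotides long, and those of the other members 16 (Nop14) to 2435 (Nip7). The part of 3′ UTR length in these shares was not tested. Every member site of 7 bases was the seed match AGCACTT, and no member held an 8-base match. One site of each of these genes is printed here as the sense strand of GRCm38, with the match in capitals.
Polr1a, chr6:71980929-71980953, plus strand: tgtagttccAGCACTTgggaggctg
Ncl, chr1:86350084-86350108, minus strand: tttaaccccAGCACTTgggagggag
Dkc1, chrX:75109409-75109433, plus strand: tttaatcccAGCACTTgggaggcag
Tsr1, chr11:74909303-74909327, plus strand: agaccttgaAGCACTTtaataaaag
Wdr12, chr1:60076766-60076790, minus strand: gcagttcagAGCACTTgctgctcct
Ebna1bp2, chr4:118626076-118626100, plus strand: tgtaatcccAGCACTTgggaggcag
Ncl held 3 such sites and 1 of 6 bases, Ebna1bp2 held 2, and the other members with a match held 1 each. The windows of Polr1a, Ncl, Dkc1 and Ebna1bp2 share the run AGCACTTGGGAG, a stretch noticed only after the windows were read. It began at 6 of the 9 member sites of 7 bases, beside 5.87% of the 3342 sites of 7 or 8 bases in all protein-coding genes tested. The run was picked as the commonest one in these same member windows, so a higher share among members follows from that choice and tests nothing. A match is a run of letters and does not show binding.

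Library totals were 1151649 to 4984833 counts, and a member had between 16 reads (Fbl) and 5538 reads (Ncl) in a library. Levels are given as CPM, counts relative to the library total scaled with TMM factors, and, since each fraction was scaled to its own library, a level is a share of that fraction's messages. In such bulk samples, fewer cells of a type and less RNA per cell cannot be told apart. Markers of naive pluripotent cells summed to 3399 to 5893 CPM in WT and 3367 to 4256 CPM in KO libraries, with all 9 markers tested. Embryonic fibroblast markers summed to 7.01 to 12.7 CPM in WT and 2.33 to 21.5 CPM in KO libraries, with 2 of 6 markers past the filter and Postn at 0 in every WT library. Formative epiblast markers summed to 100.5 to 150 CPM in WT and 86.8 to 133.9 CPM in KO libraries, with Fgf5 at 0 in every KO library. Those of primitive endoderm summed to 3.31 to 10.8 and 1.94 to 10.1 CPM. To check the genotype, the targeted gene was examined. Monosomes held Dgcr8 at 76.3, 68.4 and 79.6 CPM in WT and 47.2, 52.03 and 51.3 CPM in KO gradients. Low polysomes held Dgcr8 at 51.8, 70.02 and 66.5 CPM in WT and 39.03, 58.6 and 42.04 CPM in KO gradients. High polysomes held Dgcr8 at 26.1, 27.4 and 29.6 CPM in WT and 14.6, 22.99 and 8.73 CPM in KO gradients. Dgcr8 reads remained in each KO library, and were lower in KO cells in monosomes (log2 difference -0.56, SE 0.19, adjusted p = 0.0185), low polysomes (log2 difference -0.45, SE 0.17, adjusted p = 0.0223) and high polysomes (log2 difference -1.01, SE 0.23, adjusted p = 0.000276). The labels do not say which stretch of the gene was deleted, and 3′ reads from outside that stretch would not check the knockout. All p-values called adjusted come from limma with Benjamini-Hochberg adjustment over 12851 genes, and a gene is said to rise, fall or change only at an adjusted p under 0.05.

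The first question was how the translation level of these genes, the ratio of their high polysome to their monosome reads, differed between KO and WT cells. Of the 40 members, 14 rose and 7 fell, whereas 13% of all genes tested rose and 15.2% fell. The members that fell were Nop10, Nhp2 and Gar1 of the box H/ACA snoRNP, Rrp9 of a box C/D snoRNP, and Nop16, Nip7 and Ebna1bp2 of the large subunit. The members that rose included the large polymerase subunits Polr1a and Polr1b, the scaffold proteins Nolc1 and Tcof1, and the small subunit factors Utp20, Heatr1, Bms1 and Tsr1. Log2 changes over 1 in size were seen for 5 of those that rose and 5 of those that fell, beside 6.29% and 8.81% of all genes. The median log2 change was 0.22 over the members and 0.01 over all genes. Scaling to total counts in place of TMM factors shifted the median of all genes to -0.32 and that of the members to -0.11, and 6 members then rose and 9 fell. The 6 were Polr1c, Nolc1, Tcof1, Utp20, Tsr1 and Nop2, all of which also rose with TMM factors, and the 9 were the same 7 with Ubtf and Gnl3. The shares of all genes above are with TMM factors. For these and the later counts of members with total counts, the share of all genes called at that scaling is not given here.

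Within fractions, the members were lower in KO monosomes more often than higher. In monosomes 3 rose and 15 fell, beside 17.5% and 19.9% of all genes, and the median was -0.26 beside -0.05. In low polysomes 5 rose and 10 fell, beside 26.1% and 26.2%, with a median of -0.07 beside 0.00. In high polysomes 13 rose and 13 fell, beside 29.1% and 31.6%, with a median of -0.06 beside -0.08. With total counts the median of all genes moved to 0.05 in monosomes and -0.31 in high polysomes, and the counts of members to 4 that rose and 11 that fell in monosomes and to 9 and 19 in high polysomes. These comparisons and that of translation level use the same libraries, so their calls are not independent. Taf1b, Rrn3 and Ubtf were the members that rose in monosomes, and Polr1c and Npm1 had the largest falls there.

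**Figure D1:**
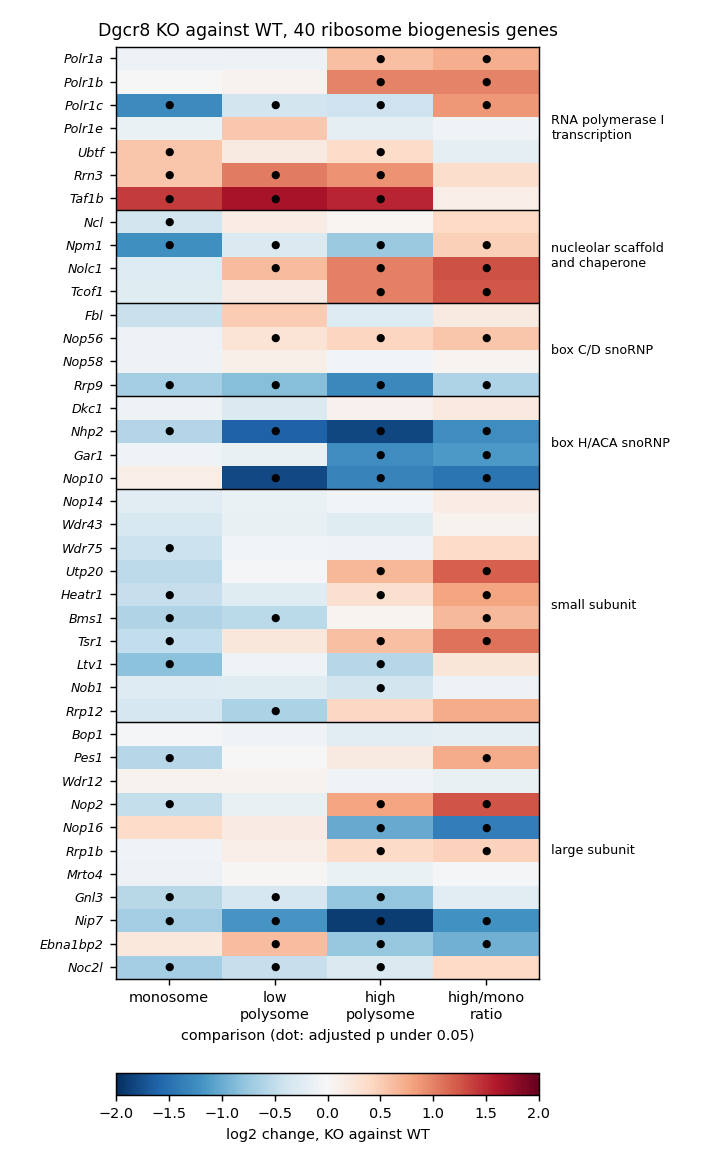
Log2 change of each of the 40 members in KO against WT cells (color, from -2 to 2), in monosomes, low polysomes, high polysomes and in the high polysome to monosome ratio, with a dot at an adjusted p under 0.05. In the ratio, 3 of the 4 box H/ACA genes fell and none of the small subunit genes did, while 5 of the 10 small subunit genes fell in monosomes.

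Among the genes of RNA polymerase I transcription, 3 of 7 rose in translation level and none fell. Polr1a (ENSMUSG00000049553, chr6:71909053-71984935, plus strand) and Polr1b (ENSMUSG00000027395, chr2:129100995-129126594, plus strand) encode the 2 largest subunits, which form the catalytic core of the enzyme. Monosomes held Polr1a at 36.8, 43.2 and 32.7 CPM in WT and 40.02, 31.4 and 34.9 CPM in KO gradients. Low polysomes held Polr1a at 57.8, 74.2 and 67.7 CPM in WT and 57.8, 62.2 and 65.4 CPM in KO gradients. High polysomes held Polr1a at 34.3, 41.8 and 38.5 CPM in WT and 66.8, 55.3 and 53.8 CPM in KO gradients. The genotypes overlapped in monosomes and low polysomes, and every KO library was above every WT library in high polysomes. Polr1a thus rose in high polysomes (log2 difference 0.60, SE 0.15, adjusted p = 0.000586) and in translation level (log2 difference 0.72, SE 0.24, adjusted p = 0.0218). Monosomes held Polr1b at 38.2, 42.6 and 54.8 CPM in WT and 37.2, 54.8 and 41.1 CPM in KO gradients. Low polysomes held Polr1b at 30.7, 33.2 and 23.2 CPM in WT and 31.4, 33.96 and 26.01 CPM in KO gradients. High polysomes held Polr1b at 21.8, 19.1 and 18.5 CPM in WT and 47.3, 34.5 and 37.9 CPM in KO gradients. Again the genotypes were apart in high polysomes alone, where Polr1b rose (log2 difference 0.99, SE 0.19, adjusted p = 2.42e-05), as it did in translation level (log2 difference 0.99, SE 0.27, adjusted p = 0.00518). In translation level, the adjusted p of Polr1a was 0.0790 without WT gradient 1, 0.0986 without WT gradient 2 and 0.0725 without KO gradient 2. That of Polr1b was 0.0531 without WT gradient 3. Both calls in translation level were also lost with total counts, at log2 changes of 0.39 and 0.66.

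Polr1c (ENSMUSG00000067148, chr17:46243920-46248054, minus strand) encodes a smaller subunit that RNA polymerases I and III share. Monosomes held Polr1c at 518, 430.4 and 440.3 CPM in WT and 191, 179 and 202 CPM in KO gradients. Low polysomes held Polr1c at 137, 135 and 138 CPM in WT and 122, 93.2 and 104 CPM in KO gradients. High polysomes held Polr1c at 199, 185 and 206 CPM in WT and 163, 137 and 143 CPM in KO gradients. KO libraries were lower than WT libraries in every fraction, and most so in monosomes. Polr1c fell in monosomes (log2 difference -1.28, SE 0.12, adjusted p = 2.23e-11), low polysomes (log2 difference -0.37, SE 0.12, adjusted p = 0.0107) and high polysomes (log2 difference -0.42, SE 0.12, adjusted p = 0.00253), and, since monosomes fell furthest, its translation level rose (log2 difference 0.86, SE 0.17, adjusted p = 0.000126). The low polysome call was lost without 1 library, with an adjusted p of 0.0578 without KO gradient 2. Polr1e, another subunit of the enzyme, passed the test in none of the 4 comparisons, with a change in translation level of -0.06 on the log2 scale and a 95% interval from -0.75 to 0.62. In low polysomes it had an adjusted p of 0.0598, and of 0.0443 without WT gradient 2.

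The initiation factors of RNA polymerase I rose within fractions, with no called change in translation level. RRN3 carries the polymerase to the promoter, TAF1B is part of the promoter selectivity factor SL1, and UBTF binds and opens the ribosomal DNA. Monosomes held Rrn3 (ENSMUSG00000022682, chr16:13780708-13814839, plus strand) at 127, 132 and 127 CPM in WT and 205, 191 and 175 CPM in KO gradients. Low polysomes held Rrn3 at 139, 155 and 124 CPM in WT and 322, 268 and 272 CPM in KO gradients. High polysomes held Rrn3 at 276, 268 and 272 CPM in WT and 541, 482 and 502 CPM in KO gradients. In all 3 fractions every KO library was above every WT library, and Rrn3 rose in monosomes (log2 difference 0.55, SE 0.13, adjusted p = 0.000672), low polysomes (log2 difference 1.04, SE 0.11, adjusted p = 4.41e-10) and high polysomes (log2 difference 0.90, SE 0.11, adjusted p = 3.64e-09). Monosomes held Taf1b (ENSMUSG00000059669, chr12:24498359-24558539, plus strand) at 23.4, 25.8 and 21.2 CPM in WT and 68.9, 51.3 and 70.9 CPM in KO gradients. Low polysomes held Taf1b at 23.6, 25.9 and 22.3 CPM in WT and 67.3, 69.8 and 90.6 CPM in KO gradients. High polysomes held Taf1b at 25.7, 36.04 and 30.9 CPM in WT and 88.3, 96.6 and 82.04 CPM in KO gradients. Taf1b had the largest rise of any member in each fraction, with no overlap of the genotypes (log2 difference 1.39, SE 0.22, adjusted p = 2.14e-06 in monosomes, log2 difference 1.65, SE 0.16, adjusted p = 3.87e-11 in low polysomes and log2 difference 1.52, SE 0.16, adjusted p = 9.76e-11 in high polysomes). The translation level of Rrn3 (log2 difference 0.35, SE 0.17, adjusted p = 0.125) and Taf1b (log2 difference 0.13, SE 0.27, adjusted p = 0.763) did not pass the test.

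Ubtf (ENSMUSG00000020923, chr11:102304560-102319742, minus strand) differed less. Monosomes held Ubtf at 501, 485 and 444 CPM in WT and 649, 742 and 708 CPM in KO gradients. Low polysomes held Ubtf at 398, 351 and 391 CPM in WT and 368, 461 and 468 CPM in KO gradients. High polysomes held Ubtf at 424, 379.9 and 444 CPM in WT and 524, 508 and 577 CPM in KO gradients. KO libraries were above WT libraries in monosomes and high polysomes and overlapped with them in low polysomes. Ubtf rose in monosomes (log2 difference 0.55, SE 0.11, adjusted p = 0.000170) and in high polysomes (log2 difference 0.37, SE 0.11, adjusted p = 0.00418). In low polysomes its log2 change was 0.18 (adjusted p = 0.178, and 0.0316 without KO gradient 1), and in translation level it was -0.18 (adjusted p = 0.425). With total counts the call in high polysomes was lost (log2 change 0.15) and the translation level fell (log2 change -0.51).

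**Figure D2:**
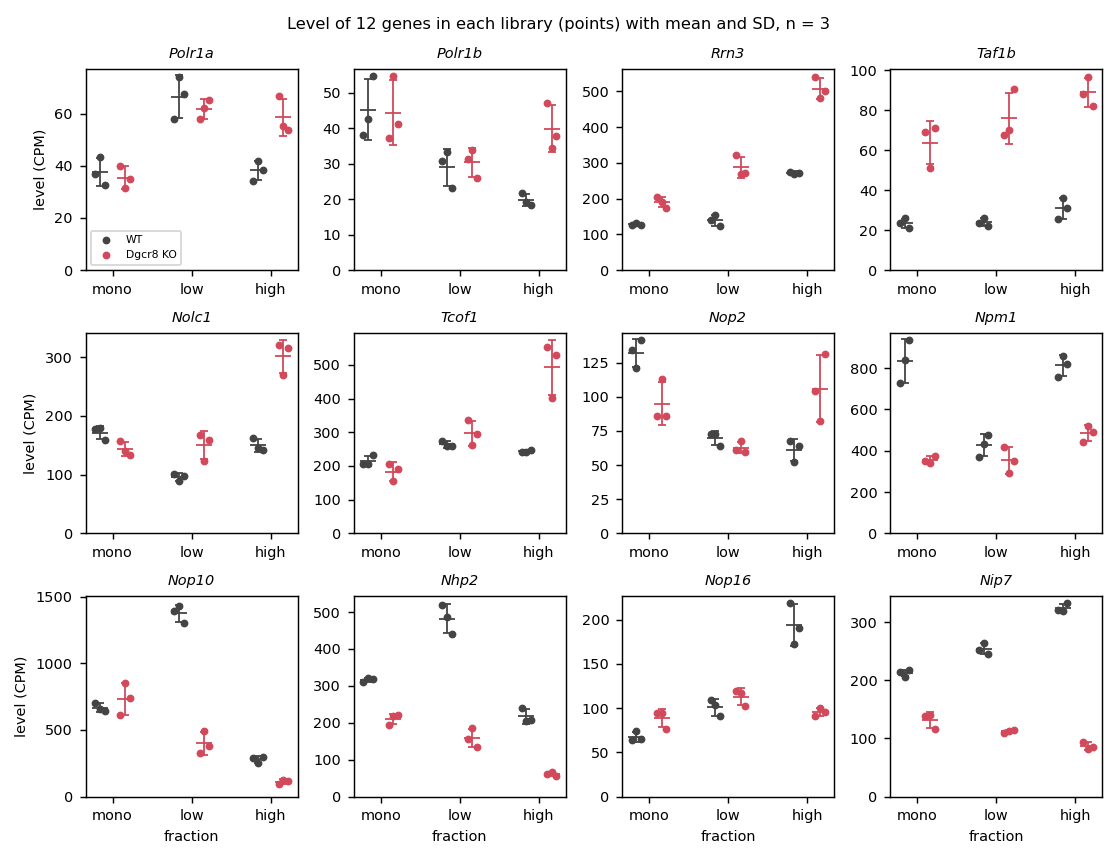
Level in CPM of 12 members in each library, as points, with the mean and SD of each group of 3, in monosomes (mono), low polysomes (low) and high polysomes (high) of WT (grey) and KO (red) cells. Taf1b and Rrn3 were higher in KO cells in every fraction, Nolc1 and Tcof1 were higher in high polysomes, and Nhp2 and Nip7 were lower in every fraction.

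Of the 4 nucleolar scaffold and chaperone genes, 3 rose in translation level. NOLC1 and TCOF1 (treacle) are related phosphoproteins that bind snoRNPs and RNA polymerase I, and treacle is the protein mutated in Treacher Collins syndrome. Monosomes held Nolc1 (ENSMUSG00000015176, chr19:46075863-46085530, plus strand) at 178, 179 and 158 CPM in WT and 158, 140.2 and 133 CPM in KO gradients. Low polysomes held Nolc1 at 102, 88.99 and 97.5 CPM in WT and 168, 124 and 159.5 CPM in KO gradients. High polysomes held Nolc1 at 162, 145 and 142 CPM in WT and 320.4, 269.6 and 316 CPM in KO gradients. Every KO library was above every WT library in both polysome fractions and below in monosomes, where the difference did not pass the test (log2 difference -0.27, SE 0.13, adjusted p = 0.111). Nolc1 rose in low polysomes (log2 difference 0.64, SE 0.13, adjusted p = 4.77e-05) and high polysomes (log2 difference 1.01, SE 0.12, adjusted p = 2.27e-09), and had the largest rise of the members in translation level (log2 difference 1.28, SE 0.18, adjusted p = 6.52e-07). Monosomes held Tcof1 (ENSMUSG00000024613) at 207, 205 and 232 CPM in WT and 207, 154 and 189.6 CPM in KO gradients. Low polysomes held Tcof1 at 275, 259 and 259 CPM in WT and 336, 262 and 295 CPM in KO gradients. High polysomes held Tcof1 at 243, 242 and 247 CPM in WT and 552, 401 and 529 CPM in KO gradients. The genotypes of Tcof1 overlapped in monosomes and low polysomes and were apart in high polysomes. Tcof1 rose in high polysomes (log2 difference 1.005, SE 0.12, adjusted p = 3.54e-09) and in translation level (log2 difference 1.24, SE 0.18, adjusted p = 1.61e-06).

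Nucleophosmin (Npm1, ENSMUSG00000057113, chr11:33152287-33163206, minus strand), a histone chaperone that also serves pre-ribosome export, and nucleolin (Ncl, ENSMUSG00000026234, chr1:86344719-86359400, minus strand), an RNA-binding protein of the dense nucleolus, moved in another way. Monosomes held Npm1 at 726, 837 and 938 CPM in WT and 349, 341 and 377 CPM in KO gradients. Low polysomes held Npm1 at 372, 433 and 478 CPM in WT and 420.2, 290 and 348 CPM in KO gradients. High polysomes held Npm1 at 759, 859.9 and 820.1 CPM in WT and 444, 520.3 and 489.5 CPM in KO gradients. KO libraries were below WT libraries in monosomes and high polysomes and overlapped with them in low polysomes. Npm1 fell in monosomes (log2 difference -1.22, SE 0.13, adjusted p = 2.95e-10), low polysomes (log2 difference -0.29, SE 0.12, adjusted p = 0.0477) and high polysomes (log2 difference -0.75, SE 0.12, adjusted p = 1.02e-06), and rose in translation level (log2 difference 0.47, SE 0.17, adjusted p = 0.0371). The last of these calls had an adjusted p of 0.0501 without WT gradient 1, 0.109 without WT gradient 2, 0.150 without WT gradient 3, 0.131 without KO gradient 2 and 0.0703 without KO gradient 3. The low polysome call had an adjusted p of 0.102 without WT gradient 2, 0.218 without WT gradient 3, 0.255 without KO gradient 2 and 0.108 without KO gradient 3. It was also lost with edgeR (adjusted p = 0.0709), with limma-trend (0.0680) and with only the low polysome libraries in the fit (0.0706). With total counts the change in the translation level of Npm1 was 0.14, with no call. Monosomes held Ncl at 1016, 1291 and 1032 CPM in WT and 955, 794 and 845 CPM in KO gradients. Low polysomes held Ncl at 708, 657 and 755 CPM in WT and 1036, 589 and 780.3 CPM in KO gradients. High polysomes held Ncl at 1214, 1171 and 1178 CPM in WT and 1275, 1117 and 1273 CPM in KO gradients. Ncl overlapped between the genotypes in both polysome fractions and fell in monosomes (log2 difference -0.36, SE 0.13, adjusted p = 0.0282), a call with an adjusted p of 0.378 without WT gradient 2, 0.143 without KO gradient 2 and 0.0846 without KO gradient 3. Its translation level missed the threshold (log2 difference 0.40, SE 0.18, adjusted p = 0.0987), with an adjusted p of 0.0467 without KO gradient 1. With the gradient as a block it passed (log2 difference 0.40, adjusted p = 0.0351). Reads of Npm1, Ncl, Fbl, Nhp2, Nop10 and Gnl3 were counted only where they aligned to 1 place, and these genes may have near-identical processed copies, so that their levels are uncertain. Without these 6, 13 of 34 members rose and 5 fell in translation level.

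The box C/D snoRNP genes showed no common direction. Fibrillarin (Fbl, ENSMUSG00000046865, chr7:28169710-28179269, plus strand) is the methyltransferase of these particles, NOP56 and NOP58 are its core partners, and RRP9 is a protein of the U3 particle that takes part in pre-rRNA cleavage. Monosomes held Fbl at 16.1, 12.9 and 14.2 CPM in WT and 11.1, 6.601 and 16.4 CPM in KO gradients. Low polysomes held Fbl at 14.5, 7.81 and 12.6 CPM in WT and 18.8, 16.3 and 13.1 CPM in KO gradients. High polysomes held Fbl at 38.6, 32.4 and 26.1 CPM in WT and 22.1, 24.9 and 31.7 CPM in KO gradients. These levels rest on 16 to 138 reads, and the genotypes overlapped in every fraction. Fbl passed the test in none of the 4 comparisons, with a log2 change in translation level of 0.17 (SE 0.40) and a 95% interval from -0.61 to 0.95, and in low polysomes it had an adjusted p of 0.0362 without KO gradient 3. The mean level of Nop56 (± SD, n = 3) was 374 ± 14.3 CPM in monosomes of WT and 343 ± 24.9 CPM in those of KO cells, and in high polysomes it was 185 ± 7.45 and 248 ± 17.1 CPM. Nop56 rose in high polysomes (log2 difference 0.42, SE 0.11, adjusted p = 0.00120) and in translation level (log2 difference 0.55, SE 0.16, adjusted p = 0.00750), and both calls were lost with total counts. Nop58 passed no test, with log2 changes between -0.10 and 0.12. Rrp9 fell in monosomes (log2 difference -0.68, SE 0.14, adjusted p = 0.000122), low polysomes (log2 difference -0.86, SE 0.12, adjusted p = 1.47e-07) and high polysomes (log2 difference -1.29, SE 0.12, adjusted p = 8.66e-12), where it averaged 169 ± 5.14 CPM in WT and 69.2 ± 4.86 CPM in KO cells, and fell in translation level (log2 difference -0.61, SE 0.18, adjusted p = 0.00994), a call with an adjusted p of 0.0540 without KO gradient 3. The rise of Nop56 in low polysomes (log2 difference 0.28, SE 0.11, adjusted p = 0.0369) had an adjusted p of 0.130 without WT gradient 1, 0.241 without WT gradient 2, 0.0659 without KO gradient 2 and 0.111 without KO gradient 3. That call was also lost with DESeq2 size factors, total counts, the stricter filter and only the low polysome libraries in the fit.

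Of the 4 core proteins of the box H/ACA snoRNP, the 3 small ones fell in high polysomes and in translation level, and the catalytic one did not pass the test in any of the 4 comparisons. NHP2, NOP10 and GAR1 assemble with the pseudouridine synthase dyskerin (DKC1), and the same 4 proteins are part of telomerase. Monosomes held Nop10 (ENSMUSG00000027133, chr2:112261926-112263269, plus strand) at 704, 654 and 642 CPM in WT and 610.4, 849 and 736 CPM in KO gradients. Low polysomes held Nop10 at 1394, 1428 and 1304 CPM in WT and 324, 494 and 379.9 CPM in KO gradients. High polysomes held Nop10 at 292, 252 and 294 CPM in WT and 90.6, 127 and 116 CPM in KO gradients. The genotypes overlapped in monosomes, and in both polysome fractions every KO library was below every WT library. In WT cells the level of Nop10 was highest in low polysomes, whereas in KO cells it was highest in monosomes. Nop10 fell in low polysomes (log2 difference -1.81, SE 0.13, adjusted p = 2.03e-15), in high polysomes (log2 difference -1.33, SE 0.14, adjusted p = 1.35e-10) and in translation level (log2 difference -1.46, SE 0.19, adjusted p = 2.25e-07), the largest fall of the 40 members in that ratio. Monosomes held Nhp2 (ENSMUSG00000001056, chr11:51619735-51623714, plus strand) at 311, 322 and 317 CPM in WT and 195, 218 and 220.5 CPM in KO gradients. Low polysomes held Nhp2 at 519, 486 and 442 CPM in WT and 155, 185 and 135 CPM in KO gradients. High polysomes held Nhp2 at 241, 204 and 208 CPM in WT and 60.5, 66.8 and 56.99 CPM in KO gradients. In no fraction did the genotypes of Nhp2 overlap. Nhp2 fell in monosomes (log2 difference -0.59, SE 0.12, adjusted p = 0.000192), low polysomes (log2 difference -1.62, SE 0.12, adjusted p = 4.64e-15), high polysomes (log2 difference -1.83, SE 0.13, adjusted p = 2.13e-15) and translation level (log2 difference -1.24, SE 0.18, adjusted p = 9.97e-07).

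The mean level of Gar1 (± SD, n = 3) was 167 ± 9.65 CPM in monosomes of WT and 158 ± 12.4 CPM in those of KO cells, 201 ± 8.25 and 182 ± 13.8 CPM in low polysomes, and 334 ± 18.1 and 142 ± 3.004 CPM in high polysomes. It fell in high polysomes (log2 difference -1.24, SE 0.11, adjusted p = 1.33e-12) and in translation level (log2 difference -1.15, SE 0.16, adjusted p = 8.04e-07). Monosomes held Dkc1 (ENSMUSG00000031403, chrX:75095854-75109777, plus strand) at 226, 305 and 287 CPM in WT and 208, 313 and 239 CPM in KO gradients. Low polysomes held Dkc1 at 328, 336 and 329 CPM in WT and 272, 269 and 272 CPM in KO gradients. High polysomes held Dkc1 at 482, 475 and 506 CPM in WT and 422, 543 and 596 CPM in KO gradients. The genotypes overlapped in monosomes and high polysomes, and in low polysomes every KO library was below every WT library without the difference passing the test (log2 difference -0.29, SE 0.13, adjusted p = 0.0603). In translation level Dkc1 had a log2 difference of 0.19, with a 95% interval from -0.18 to 0.56. The adjusted p in low polysomes was under 0.05 with DESeq2, with DESeq2 size factors, with total counts, with the stricter filter, with only the low polysome libraries in the fit, and with the replicate number as a block, at log2 changes between -0.34 and -0.27 over all alternatives.

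Of the 10 genes of small subunit assembly, 4 rose in translation level and none fell, and the median log2 change was 0.51. UTP20 and HEATR1 are very large scaffold proteins of the early processome, BMS1 is its GTPase, and TSR1 is a related factor of the late pre-40S particle. In monosomes, Utp20 was at 38.6 ± 9.29 CPM in WT and 26.8 ± 3.77 CPM in KO cells (mean ± SD, n = 3), a difference that just missed the threshold (log2 difference -0.52, SE 0.21, adjusted p = 0.0507) and passed it in 8 of 15 alternatives, edgeR, DESeq2 and limma-trend among them. Its level in high polysomes was 33.7 ± 4.87 and 53.3 ± 6.32 CPM, so that it rose in high polysomes (log2 difference 0.67, SE 0.16, adjusted p = 0.000556) and in translation level (log2 difference 1.20, SE 0.27, adjusted p = 0.000742). Tsr1 fell in monosomes (log2 difference -0.49, SE 0.16, adjusted p = 0.0129) and rose in high polysomes (log2 difference 0.60, SE 0.14, adjusted p = 0.000466) and in translation level (log2 difference 1.08, SE 0.21, adjusted p = 0.000138). Heatr1 moved in the same way (log2 difference -0.47, SE 0.16, adjusted p = 0.0194 in monosomes, log2 difference 0.32, SE 0.13, adjusted p = 0.0362 in high polysomes and log2 difference 0.78, SE 0.21, adjusted p = 0.00366 in translation level). Bms1 fell in monosomes (log2 difference -0.60, SE 0.16, adjusted p = 0.00208) and low polysomes (log2 difference -0.53, SE 0.14, adjusted p = 0.00103) and rose in translation level (log2 difference 0.65, SE 0.20, adjusted p = 0.0135). Its level in high polysomes was 152 ± 9.52 CPM in WT and 159 ± 38.7 CPM in KO cells. Several of these calls were lost without 1 gradient. The adjusted p of Tsr1 in monosomes was 0.0647 without WT gradient 2, 0.0542 without WT gradient 3 and 0.0607 without KO gradient 2. That of Heatr1 was 0.211 without WT gradient 2 and 0.101 without KO gradient 2 in monosomes, and in high polysomes it was 0.272 without WT gradient 1, 0.136 without WT gradient 3, 0.139 without KO gradient 1 and 0.0561 without KO gradient 3. That of Bms1 in translation level was 0.0621 without WT gradient 2, 0.0585 without WT gradient 3 and 0.161 without KO gradient 3. With total counts the rises of Heatr1 and Bms1 in translation level were not called, nor were the falls of Tsr1 and Heatr1 in monosomes. The rise of Heatr1 in high polysomes dropped to 0.09 with total counts (adjusted p = 0.557), and was not called either with no filter, with the stricter filter or with only the groups compared. Heatr1 was called lower in low polysomes with the stricter filter (adjusted p = 0.0487).

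Ltv1 (ENSMUSG00000019814, chr10:13178140-13193168, minus strand), a factor that leaves the pre-40S particle late in its maturation, fell without a called change in translation level. Monosomes held Ltv1 at 50.2, 50.98 and 49.5 CPM in WT and 30.6, 28.4 and 27.4 CPM in KO gradients. Low polysomes held Ltv1 at 21.5, 20.1 and 29.8 CPM in WT and 23.1, 22.4 and 21.02 CPM in KO gradients. High polysomes held Ltv1 at 68.7, 74.2 and 80.2 CPM in WT and 56.5, 48.5 and 46.4 CPM in KO gradients. Every KO library was below every WT library in monosomes and in high polysomes, and the genotypes overlapped in low polysomes. Ltv1 fell in monosomes (log2 difference -0.81, SE 0.18, adjusted p = 0.000449) and high polysomes (log2 difference -0.57, SE 0.13, adjusted p = 0.000362), with a log2 change in translation level of 0.24 (adjusted p = 0.463). Nob1, the endonuclease that makes the 3′ end of 18S rRNA, fell in high polysomes (log2 difference -0.38, SE 0.14, adjusted p = 0.0194), with an adjusted p of 0.0560 without WT gradient 1, 0.0822 without WT gradient 3, 0.211 without KO gradient 2 and 0.0749 without KO gradient 3. Rrp12 fell in low polysomes (log2 difference -0.64, SE 0.21, adjusted p = 0.0101), and its translation level missed the threshold (log2 difference 0.74, SE 0.32, adjusted p = 0.0819). Wdr75 fell in monosomes (log2 difference -0.43, SE 0.16, adjusted p = 0.0254), with an adjusted p of 0.104 without WT gradient 1, 0.0617 without WT gradient 2, 0.0660 without WT gradient 3, 0.161 without KO gradient 2 and 0.0973 without KO gradient 3. Nop14 and Wdr43, which are processome components as well, passed the test in none of the 4 comparisons. Wdr43 was called lower in monosomes with the number as a block (adjusted p = 0.0308), and in high polysomes with total counts (adjusted p = 0.00290), with the stricter filter (adjusted p = 0.0497) and, with an adjusted p of 0.0301 without WT gradient 1 and 0.0291 without KO gradient 2, with a gradient left out. Nop14 in low polysomes had an adjusted p of 0.0494 without WT gradient 1. Rrp12 had an adjusted p of 0.0262 without KO gradient 2 in translation level and of 0.00206 without KO gradient 2 in high polysomes.

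The 11 genes of large subunit assembly went both ways, with 3 that rose and 3 that fell in translation level. NOP2 is the methyltransferase that acts on 28S rRNA, and PES1 is the pescadillo protein, which with BOP1 and WDR12 forms the PeBoW complex. Monosomes held Nop2 (ENSMUSG00000038279, chr6:125131909-125144753, plus strand) at 134, 121 and 142 CPM in WT and 85.6, 113 and 86.2 CPM in KO gradients. Low polysomes held Nop2 at 72.99, 72.8 and 63.8 CPM in WT and 61.2, 67.6 and 59.6 CPM in KO gradients. High polysomes held Nop2 at 67.5, 51.9 and 63.7 CPM in WT and 104, 82.01 and 132 CPM in KO gradients. KO libraries were below all WT libraries in monosomes and above all of them in high polysomes. Nop2 fell in monosomes (log2 difference -0.48, SE 0.15, adjusted p = 0.0129), with an adjusted p of 0.0564 without WT gradient 3 and 0.0542 without KO gradient 3, and rose in high polysomes (log2 difference 0.79, SE 0.15, adjusted p = 1.95e-05) and in translation level (log2 difference 1.26, SE 0.21, adjusted p = 1.73e-05). Pes1 rose in translation level (log2 difference 0.74, SE 0.21, adjusted p = 0.00578) and fell in monosomes (log2 difference -0.56, SE 0.16, adjusted p = 0.00485), and its partners Bop1 and Wdr12 passed the test in none of the 4 comparisons. The Pes1 call in translation level was lost with total counts, and its adjusted p was 0.0833 without KO gradient 3. Rrp1b, a nucleolar partner of protein phosphatase 1, rose in high polysomes (log2 difference 0.39, SE 0.11, adjusted p = 0.00234) and in translation level (log2 difference 0.45, SE 0.16, adjusted p = 0.0283), where its adjusted p was 0.0689 without WT gradient 1, 0.108 without WT gradient 2, 0.0816 without WT gradient 3, 0.0578 without KO gradient 1 and 0.150 without KO gradient 3. Both calls of Rrp1b were lost with total counts.

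The large subunit genes that fell in translation level were Nop16, Nip7 and Ebna1bp2, which encode assembly factors of the pre-60S particle. Monosomes held Nop16 (ENSMUSG00000025869, chr13:54584185-54590090, minus strand) at 63.6, 73.6 and 65.4 CPM in WT and 94.5, 94.4 and 76.8 CPM in KO gradients. Low polysomes held Nop16 at 109, 103 and 90.6 CPM in WT and 119, 118 and 102 CPM in KO gradients. High polysomes held Nop16 at 219, 173 and 190.1 CPM in WT and 90.6, 100.3 and 96.1 CPM in KO gradients. In monosomes every KO library was above every WT library, and in high polysomes every one was below. Nop16 fell in high polysomes (log2 difference -1.01, SE 0.12, adjusted p = 3.31e-09) and in translation level (log2 difference -1.39, SE 0.20, adjusted p = 7.86e-07), and its difference in monosomes just missed the threshold (log2 difference 0.37, SE 0.15, adjusted p = 0.0507) and passed it with edgeR, DESeq2 and limma-trend among other alternatives. Monosomes held Nip7 (ENSMUSG00000031917, chr8:107056877-107060931, plus strand) at 215, 206 and 218 CPM in WT and 139.5, 141 and 116 CPM in KO gradients. Low polysomes held Nip7 at 253, 265 and 246 CPM in WT and 109.7, 112 and 115 CPM in KO gradients. High polysomes held Nip7 at 321, 319 and 333 CPM in WT and 94.2, 82.01 and 84.6 CPM in KO gradients. The genotypes of Nip7 were apart in every fraction, with KO libraries lower and the gap widest in high polysomes. Nip7 fell in monosomes (log2 difference -0.70, SE 0.12, adjusted p = 1.02e-05), low polysomes (log2 difference -1.18, SE 0.11, adjusted p = 9.39e-12) and high polysomes (log2 difference -1.90, SE 0.11, adjusted p = 1.43e-17), the largest fall of a member in that fraction, and in translation level (log2 difference -1.21, SE 0.16, adjusted p = 3.96e-07). Ebna1bp2 rose in low polysomes (log2 difference 0.62, SE 0.12, adjusted p = 1.93e-05) and fell in high polysomes (log2 difference -0.76, SE 0.11, adjusted p = 1.14e-07), where it averaged 269 ± 17.2 CPM in WT and 159 ± 2.304 CPM in KO cells, and in translation level (log2 difference -0.96, SE 0.17, adjusted p = 3.84e-05).

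Among the remaining large subunit genes, nucleostemin (Gnl3), a GTPase abundant in stem cells, fell in monosomes (log2 difference -0.55, SE 0.13, adjusted p = 0.000925), low polysomes (log2 difference -0.34, SE 0.13, adjusted p = 0.0215) and high polysomes (log2 difference -0.77, SE 0.12, adjusted p = 1.24e-06). Its low polysome call had an adjusted p of 0.0578 without WT gradient 2 and 0.0973 without WT gradient 3. Noc2l fell in the same 3 fractions (log2 difference -0.68, SE 0.14, adjusted p = 0.000112 in monosomes, log2 difference -0.47, SE 0.13, adjusted p = 0.00342 in low polysomes and log2 difference -0.29, SE 0.13, adjusted p = 0.0472 in high polysomes). The call of Noc2l in high polysomes was lost with edgeR, DESeq2, limma-trend and DESeq2 size factors, and its adjusted p was 0.108 without WT gradient 2, 0.158 without WT gradient 3, 0.158 without KO gradient 2 and 0.0948 without KO gradient 3. The translation levels of Gnl3 (log2 difference -0.22, SE 0.18, adjusted p = 0.395) and Noc2l (log2 difference 0.39, SE 0.19, adjusted p = 0.114) did not pass the test, and with the gradient as a block that of Noc2l did (log2 difference 0.40, adjusted p = 0.0459). Mrto4, the nuclear counterpart of the ribosomal stalk protein P0, passed the test in none of the 4 comparisons. With scaling to total counts, Fbl, Wdr43, Wdr75, Bop1, Wdr12 and Mrto4 were also called lower in KO high polysomes. With no filter, 25635 genes were tested, and the calls of Polr1a, Npm1, Bms1 and Rrp1b in translation level, of Ncl, Wdr75, Heatr1, Tsr1, Pes1 and Nop2 in monosomes and of Npm1 in low polysomes were lost.

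Within each genotype, members differed widely in how they were spread over the fractions. In WT cells, 14 of 40 were higher and 9 lower in high polysomes than in monosomes, beside 26% and 28% of all genes. In KO cells, 22 were higher and 7 lower, beside 32.2% and 35.5%. The median log2 ratio over the members was 0.18 in WT and 0.41 in KO cells, beside -0.01 and -0.07 over all genes. By gradient, the members' median ratio was 0.14, 0.19 and 0.20 in WT and 0.36, 0.29 and 0.49 in KO cells, so that the 2 sets of 3 gradients did not overlap. With total counts, 16 members were higher and 11 lower in KO high polysomes, and the median of all genes in that ratio moved to -0.32. The members' median was then 0.26 in WT and 0.16 in KO cells, so that which genotype had the higher median depends on the TMM scaling. Nop16 went from log2 ratios of 1.77, 1.22 and 1.53 in the WT gradients to -0.06, 0.09 and 0.32 in the KO gradients, so that it was called higher in WT high polysomes (log2 difference 1.51, SE 0.15, adjusted p = 1.53e-11) and not in KO ones (log2 difference 0.12, SE 0.13, adjusted p = 0.423). Nip7 had log2 ratios of 0.58, 0.63 and 0.61 in the WT and -0.56, -0.77 and -0.45 in the KO gradients, and was called higher in WT (log2 difference 0.61, SE 0.11, adjusted p = 1.79e-05) and lower in KO high polysomes (log2 difference -0.60, SE 0.12, adjusted p = 3.03e-05). Tcof1 had log2 ratios of 0.23, 0.24 and 0.09 in the WT and 1.41, 1.37 and 1.48 in the KO gradients. Its WT ratio passed no test (log2 difference 0.19, SE 0.13, adjusted p = 0.232) and its KO ratio did (log2 difference 1.43, SE 0.13, adjusted p = 5.09e-13). Nop10 had log2 ratios of -1.27, -1.38 and -1.12 in the WT and -2.74, -2.73 and -2.66 in the KO gradients, and was lower in high polysomes than in monosomes in both genotypes.

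**Figure D3:**
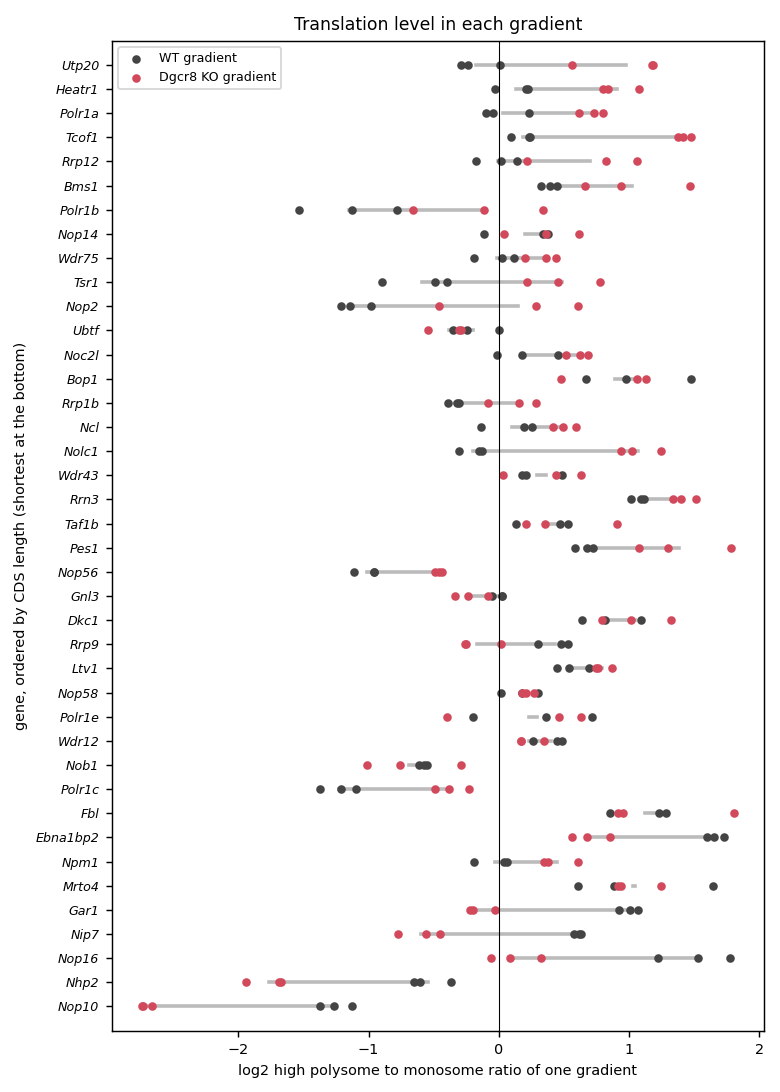
Log2 high polysome to monosome ratio of each of the 40 members in the 3 WT (grey) and 3 KO (red) gradients, with a bar between the genotype means, ordered by CDS length with the shortest at the bottom. KO gradients were to the right of all WT gradients for 20 members and to the left of all for 8.

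In translation level, all 3 KO gradients were above all 3 WT gradients for 20 members and below for 8, beside 20.3% and 21.4% of all genes. Since most of the members that fell encode small proteins, each change was set beside the length of the coding sequence (CDS). The 10 members with the shortest CDS, 195 to 1041 nucleotides, were Nop10, Nhp2, Nop16, Nip7, Gar1, Mrto4, Npm1, Ebna1bp2, Fbl and Polr1c. Of these 2 rose and 6 fell, with a median log2 change of -1.06. The 10 with the longest CDS, 2412 to 8370 nucleotides, were Tsr1, Wdr75, Nop14, Polr1b, Bms1, Rrp12, Tcof1, Polr1a, Heatr1 and Utp20. Of these 7 rose and none fell, with a median of 0.76. Across the 40 members, Spearman's rho between CDS length and the change in translation level was 0.70, and across 11763 protein-coding genes it was 0.56. All points share the same 12 libraries and TMM factors, so these are descriptions with no test.

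The same order was seen over all protein-coding genes. In 10 equal bins of CDS length, the first, of 78 to 525 nucleotides, had a median log2 change of -0.94, and 1.19% of its genes rose and 54.7% fell. The last, from 3417 nucleotides, had a median of 0.62, and 32.4% rose and 0.595% fell. Of the members, 2 lay in the first bin, both of which fell, and 6 in the last, of which 5 rose. By comparison, rho across members was 0.74 in high polysomes, 0.11 in low polysomes and -0.05 in monosomes. The ratio of high polysomes to monosomes itself ran with CDS length in KO cells (rho 0.41, and 0.27 to 0.49 by gradient) and against it in WT cells (rho -0.26, and -0.31 to -0.20 by gradient). Over all protein-coding genes these were 0.46 in KO and 0.09 in WT cells.

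A trend on CDS length over all protein-coding genes left 0.08 of the members' median change of 0.22. Some members stood off that trend. Polr1c had a change of 0.86 where the trend at its length was -0.15. Nolc1 (1.28 against 0.31), Nop2 (1.26 against 0.38), Npm1 (0.47 against -0.31), Tsr1 (1.08 against 0.39) and Tcof1 (1.24 against 0.57) were above it as well. Ebna1bp2 (-0.96 against -0.26), Rrp9 (-0.61 against 0.06), Nop16 (-1.39 against -0.72) and Gar1 (-1.15 against -0.53) were below it. Polr1a (0.72 against 0.63), Heatr1 (0.78 against 0.66) and Bms1 (0.65 against 0.56) were close to it. Whether CDS length takes part in these differences was not tested.

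**Figure D4:**
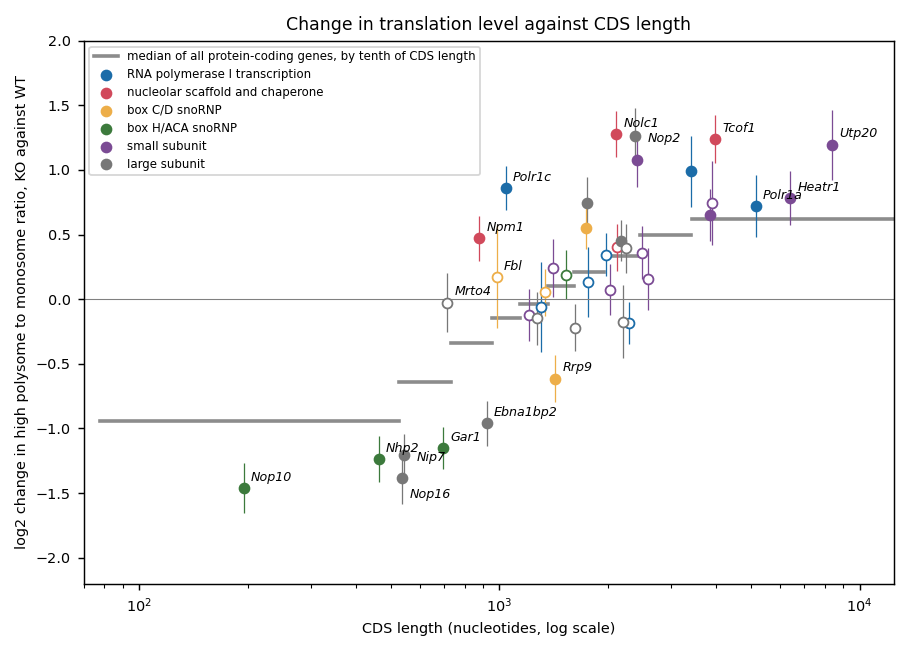
Log2 change in translation level, KO against WT, of the 40 members (points, filled where called, bars of 1 SE) against CDS length in nucleotides on a log scale, with the median of all protein-coding genes in each of 10 bins of CDS length as a grey bar. The last bar is drawn to the edge of the plot. Nop10, Nhp2, Nop16, Nip7 and Gar1 are at the lower left and Utp20 and Tcof1 at the upper right.

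The summed level of the 40 members gives their share of the messages in a fraction, on the TMM scale used for CPM. In monosomes it was 0.794, 0.829 and 0.824% of a TMM-scaled library in WT and 0.657, 0.691 and 0.665% in KO cells. In low polysomes the shares were 0.717, 0.732 and 0.730% in WT and 0.630, 0.573 and 0.586% in KO cells. High polysomes had 0.836, 0.829 and 0.846% in WT and 0.785, 0.752 and 0.822% in KO cells. On this scale KO libraries were below WT libraries in every fraction, with the smallest gap in high polysomes. The TMM factors were 1.028 to 1.071 in WT and 0.8748 to 0.9043 in KO high polysomes. In monosomes they were 0.9845 to 0.9873 in WT and 1.058 to 1.062 in KO cells. Undoing them raises the WT and lowers the KO shares in high polysomes, and does the reverse in monosomes. The order of the gaps thus depends on the scaling. Npm1 and Ncl are a large part of the summed levels. Without them, the TMM-scaled shares in high polysomes were 0.626 to 0.646% in WT and 0.588 to 0.646% in KO cells and overlapped. In monosomes (0.616 to 0.627% in WT and 0.526 to 0.577% in KO cells) and in low polysomes (0.607 to 0.623% and 0.474 to 0.485%) the shares did not overlap. These readings hold on the TMM scale, and undoing the factors widens the gap in high polysomes and narrows it in monosomes.

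The 6 members with an ESCC seed match, whose sites are printed above, moved in both directions. In translation level Polr1a and Tsr1 rose, Ebna1bp2 fell, and Ncl, Dkc1 and Wdr12 passed no test. Their median log2 change was 0.30, and that of the 34 members without a match was 0.21. In high polysomes Polr1a and Tsr1 rose and Ebna1bp2 fell, and in monosomes none of the 6 rose, while Ncl and Tsr1 fell. The 34 without a match also moved in both directions. Of these, 12 rose and 6 fell in translation level, 11 and 12 in high polysomes, and 3 and 13 in monosomes. The shares of all genes that rose and fell were 13% and 15.2%, 29.1% and 31.6%, and 17.5% and 19.9%, in the same order.

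Because MYC binds the E-box CACGTG, this palindrome was looked for in RefSeq promoter windows (GRCm38.p6) from 250 bases before to 50 after the start of each gene. Windows were found for 35 of the 40 members, and 7 of these (20%) held CACGTG, beside 8.09% of 27025 genes. Those genes were not limited to the 12851 that passed the filter, as the members are, so the shares come from different kinds of sets. The looser CANNTG, which includes CACGTG, was in 24 of the 35 (68.6%) beside 75.0% of genes. The windows with CACGTG of the called members are printed in the direction of transcription, with the motif in capitals.
Nop2, chr6:125131813-125131838, plus strand: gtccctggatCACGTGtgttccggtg
Tsr1, chr11:74898094-74898119, plus strand: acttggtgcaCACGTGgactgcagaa
Utp20, chr10:88826765-88826787, minus strand: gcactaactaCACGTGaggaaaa
Pes1, chr11:3963967-3963992, plus strand: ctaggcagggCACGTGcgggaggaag
Rrn3, chr16:13780474-13780499, plus strand: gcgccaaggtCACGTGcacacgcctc
Rrn3, chr16:13780641-13780666, plus strand: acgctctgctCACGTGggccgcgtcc
Ltv1, chr10:13193094-13193119, minus strand: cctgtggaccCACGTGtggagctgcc
Wdr43 was the other member with the motif. Of these 7, Nop2, Tsr1, Utp20 and Pes1 rose in translation level and none fell, and their median log2 change was 0.74, beside 8 that rose and 7 that fell of the 28 members whose windows lacked it, with a median of 0.09. In monosomes 1 of the 7 (Rrn3) rose and 4 fell, beside 2 that rose and 10 that fell of the 28. Of all genes tested, 13% rose and 15.2% fell in translation level, and 17.5% rose and 19.9% fell in monosomes. Of the 4 that rose in translation level, each has a CDS of 1755 nucleotides or more, and the part of CDS length in these differences was not tested.

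To place the members in the wider pathway, 116 other ribosome biogenesis genes chosen by function were tested. In translation level 22 (18.97%) rose and 25 (21.6%) fell, beside the 13% and 15.2% of all genes, with a median log2 change of 0.00. In monosomes 2 (1.72%) rose and 34 (29.3%) fell, beside 17.5% and 19.9% of all genes. In low polysomes 13 (11.2%) rose and 34 (29.3%) fell, beside 26.1% and 26.2%. In high polysomes 20 (17.2%) rose and 59 (50.9%) fell, beside 29.1% and 31.6%. The 13 other genes of RNA polymerase I transcription had a median log2 change of -1.004 in translation level, and of these 2 rose and 7 fell. They include several small subunits that the nuclear RNA polymerases share. The other small subunit genes had 9 that rose and 7 that fell of 41, and the other large subunit genes 10 and 6 of 40. Of the 8 snoRNP assembly genes none rose and 2 fell, and of the 14 genes of the RNA exosome and RNase MRP 1 rose and 3 fell.

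The genes of that list with the largest called changes in high polysomes were Ftsj3, Ttf1 and Pelp1, which rose, and Polr2k, Polr2l and Polr2h, which fell. FTSJ3 is a methyltransferase-like factor of pre-rRNA processing. High polysomes held Ftsj3 at 229.7, 224 and 243 CPM in WT and 566, 562 and 799 CPM in KO gradients, low polysomes at 146, 137 and 149.6 CPM in WT and 212, 168 and 213 CPM in KO gradients, and monosomes at 192, 188 and 165 CPM in WT and 183, 197 and 175 CPM in KO gradients. Its genotypes overlapped in monosomes and were far apart in high polysomes (log2 difference 1.45, SE 0.12, adjusted p = 3.03e-13). TTF1 ends transcription by RNA polymerase I. High polysomes held Ttf1 at 53.05, 87.6 and 84.4 CPM in WT and 129, 169 and 153 CPM in KO gradients, low polysomes at 111, 107 and 96.03 CPM in WT and 137, 138 and 139 CPM in KO gradients, and monosomes at 91.1, 98.1 and 87.5 CPM in WT and 110.1, 119 and 97.9 CPM in KO gradients. Ttf1 rose in high polysomes (log2 difference 1.02, SE 0.14, adjusted p = 7.1e-08) with no overlap. PELP1 serves in the processing of the second internal spacer. High polysomes held Pelp1 at 77.2, 72.8 and 70.4 CPM in WT and 153, 116 and 167 CPM in KO gradients, low polysomes at 36.3, 38.5 and 43.4 CPM in WT and 58.4, 48.4 and 50.2 CPM in KO gradients, and monosomes at 61.6, 69.05 and 64.5 CPM in WT and 63.9, 57.1 and 55.2 CPM in KO gradients. Pelp1 rose in high polysomes (log2 difference 0.97, SE 0.13, adjusted p = 3.41e-08) and overlapped between the genotypes in monosomes.

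POLR2H, POLR2K and POLR2L are subunits common to RNA polymerases I, II and III. High polysomes held Polr2h at 253, 216 and 286 CPM in WT and 42.98, 69.9 and 68.95 CPM in KO gradients, low polysomes at 204, 213 and 250.2 CPM in WT and 68.5, 128 and 129.8 CPM in KO gradients, and monosomes at 115, 96.8 and 111 CPM in WT and 80.6, 87.4 and 112 CPM in KO gradients. Polr2h fell in high polysomes (log2 difference -2.06, SE 0.18, adjusted p = 4.78e-13), where no KO library reached the lowest WT one. Polr2k and Polr2l had few reads. High polysomes held Polr2k at 6.24, 2.16 and 3.82 CPM in WT and 0.331, 1.86 and 0.230 CPM in KO gradients, low polysomes at 12.7, 8.65 and 14.2 CPM in WT and 5.22, 1.92 and 1.05 CPM in KO gradients, and monosomes at 14.7, 8.39 and 17.7 CPM in WT and 13.3, 7.38 and 11.4 CPM in KO gradients. In KO high polysomes these were 1, 6 and 1 reads. High polysomes held Polr2l at 3.51, 3.604 and 1.59 CPM in WT and 1.32, 0 and 0.690 CPM in KO gradients, low polysomes at 5.99, 3.91 and 8.73 CPM in WT and 1.23, 1.602 and 2.102 CPM in KO gradients, and monosomes at 12.1, 9.04 and 10.6 CPM in WT and 3.33, 10.5 and 8.23 CPM in KO gradients. In KO high polysomes these were 4, 0 and 3 reads. Both fell in high polysomes (log2 difference -2.53, SE 0.73, adjusted p = 0.00271 for Polr2k and log2 difference -2.30, SE 0.75, adjusted p = 0.00796 for Polr2l), and the size of such a change in so few reads is not well set.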

How the data were processed

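QuantSeq 3′ FWD reads of 18 polysome fractions (2 ESC lines, 3 fractions, 3 gradients) were used. According to the study's methods and the labels, the authors trimmed reads with cutadapt 1.14, aligned them with STAR 2.5.3a to mm10, kept unique alignments and deposited raw counts per GENCODE M14 gene from featureCounts 1.5.3. All 18 count columns were used, with totals of 1151649 to 4984833 counts. The number of gradients limits the precision.

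The filter kept the 12851 of 51467 genes that reached 3 CPM in 3 libraries. TMM factors (edgeR 4.0.16) and limma-voom 3.58.1 in R 4.3.3 were used with a mean per group (6 groups) and without a block, as limma was the study's tool. Tests were two-sided, adjusted over all genes tested. CPM were TMM-scaled, and logs used a prior count of 2. The CDS trend was a lowess curve (fraction 0.3). The fits were checked on simulated counts. Coordinates, CDS and 3′ UTR are of GENCODE M21 (GRCm38), using 1 principal transcript per gene, and microRNAs and promoters are of RefSeq.

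Members and lists were chosen with earlier results of these data known. Values in every library are given for 8 core members, for the 3 members called higher and the 3 called lower with the largest change in each KO against WT comparison, and for the 3 highest and 3 lowest other pathway genes in high polysomes. Of 118 other genes looked for, 117 were in the table, 116 were tested and Riok2 was not analysed here.

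Libraries whose labels share a genotype and a number were taken as fractions of 1 gradient, so the gradient pairs high polysomes with monosomes. Deviations of fractions of the same gradient from their group means correlated at r = 0.032 to 0.135. Across genotypes libraries share only a number, and such pairs of the same fraction correlated at r = 0 to 0.102. The ranges overlap, so the pairing by gradient is barely visible in these values. Alternatives were edgeR's quasi-likelihood test, DESeq2 1.42.0, limma-trend, DESeq2 size factors, total counts, no filter or 10 CPM, only the groups compared, a fold rule, a block, each gradient left out, members with near-identical copies left out, the CDS trend subtracted, and other seed and E-box matches.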

Additional observations from a re-analysis of the deposited data

Results flagged for a closer look

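The test of the difference between the genotypes in the high polysome to monosome ratio (the interaction of genotype and fraction, limma, adjusted over 12851 genes, n = 3 gradients per genotype) passed for 21 members. It was positive for Nolc1 (log2 difference 1.28), Nop2 (1.26), Tcof1 (1.24), Utp20 (1.20), Tsr1 (1.08), Polr1b (0.99), Polr1c (0.86), Heatr1 (0.78), Pes1 (0.74), Polr1a (0.72), Bms1 (0.65), Nop56 (0.55), Npm1 (0.47) and Rrp1b (0.45). It was negative for Nop10 (-1.46), Nop16 (-1.39), Nhp2 (-1.24), Nip7 (-1.21), Gar1 (-1.15), Ebna1bp2 (-0.96) and Rrp9 (-0.61). That is 14 members called positive and 7 negative of 40, beside 13% and 15.2% of all genes tested. Of the 21 members, 9 lost the call in some of the alternatives described below.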

How the results depend on the processing

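No member reversed its direction while called. Of the members called, 12 of 21 in the change in translation level, 12 of 18 in monosomes, 11 of 15 in low polysomes, 20 of 26 in high polysomes, 18 of 23 in the WT ratio and 20 of 29 in the KO ratio kept the call in all alternatives of test, scaling, filter, block and left-out gradient. With total counts the members' median log2 difference was -0.112 in translation level, -0.155 in monosomes, -0.286 in high polysomes, 0.256 in the WT ratio and 0.158 in the KO ratio. By construction a scaling shifts all genes of a library together. The WT ratio had a median of 0.282 with no filter and 0.093 with the stricter filter of 10 CPM, and the KO ratio 0.294 with the latter. The cause was not tested. With the CDS trend subtracted the median in translation level was 0.076. A log2 difference over 1 was met by 10, 3, 5, 9, 12 and 10 called members, in the order of comparisons above. CANNTG was in 24 members in place of 7.

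With each gradient left out in turn, the members called numbered 16 to 21 in translation level, 14 to 18 in monosomes, 13 to 16 in low polysomes, 23 to 27 in high polysomes, 18 to 26 in the WT ratio and 25 to 30 in the KO ratio. Their medians were 0.232 to 0.306, -0.326 to -0.207, -0.105 to -0.031, -0.11 to 0.009, 0.121 to 0.241 and 0.39 to 0.494. With the gradient as a replicate block, 23 members were called in translation level, 24 in the WT ratio and 30 in the KO ratio, with Ncl and Noc2l, Wdr43 and Nop14 gained. With the shared number as a replicate block, 21 members were called in translation level and 21, 16 and 26 in the 3 fractions from monosomes up. The latter gained Wdr43, Utp20 and Nop16 in monosomes and Dkc1 in low polysomes. Neither block ended a call. Members had as few as 16 reads in a library (Fbl), and Fbl (SE 0.40), Polr1e (SE 0.35) and Rrp12 (SE 0.32) had the largest standard errors in translation level.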
